A study of Hordeum vulgare with 18 samples.

Results

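The genes described here are 92 of the 43050 gene rows of a barley leaf RNA-seq series, which had almost no reads in the cultivar Golden Promise (GP) and were transcribed in both Laanaceur (M4) and Oussama (M5). They were chosen from the measured values: at most 3 sense-strand reads summed over 4 GP libraries, and a mean of at least 1 CPM in M4 and in M5. CPM are the sense-strand reads of a gene for every 1000000 sense-strand reads on genes of that library. Of all genes, 16933 reached 1 CPM in both M4 and M5, and the 92 genes are 0.543% of these. Since the values in GP, M4 and M5 chose the genes, their level in GP against that in M4 and M5 is given as a description, with no test.

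Leaves of the 3 genotypes were harvested from plants watered with 0.5 mM nitrate (LN) or 5 mM nitrate (HN), at 14 days after sowing by the study's methods, with each sample made of the leaf of 1 or 2 plants. GP is a spring barley used widely in barley genomics and is labelled wild type, and M4 and M5 are Moroccan varieties. The 6 groups were GP LN, GP HN, M4 LN, M4 HN, M5 LN and M5 HN with 3 libraries each, numbered by replicate. The library titled M4 HN replicate 4 carries a treatment label of 0.5 mM and was kept as HN. The libraries GP LN replicate 1 and GP HN replicate 1 hold transcripts of genes counted otherwise in M5 alone or in M4 alone. They therefore stayed outside the choice of the genes and are described apart. Unless they are named, reads and levels in GP are those of the other 4 GP libraries. Leaf identity was not checked with marker genes, since no table used here pairs these gene IDs with markers.

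Cultivars of a crop species differ in gene content as well as in gene regulation, a feature known as presence and absence variation. Reads of all genotypes were counted on the genes of 1 reference cultivar, Morex, so that a gene of Morex can lack reads in another cultivar because it is missing there, because its sequence differs too much for its reads to be placed, or because it is silent in the leaf. Counts alone cannot tell these apart. None of the 92 genes is among the 54 genes that the study names by ID, and no function is given here for them, since none of the IDs matched the gene table used.

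In units of 1000000 reads, libraries held 11.8 to 22.3 on genes and the 4 GP libraries held 72.5 together, so that a gene at 1 CPM would have had 72.5 reads there. At its mean level in M4 and M5, each of the 92 genes would have had at least 78.8 reads in these libraries (median 333). Instead, 54 genes had 0 reads, 19 had 1 read, 10 had 2 reads and 9 had 3 reads. The reads of all 92 genes came to 26 and 14 in GP LN replicates 2 and 3 and to 10 and 16 in GP HN replicates 2 and 4. In M4 the sum was 15059 to 23812 reads (median 20146.5 over 6 libraries) and in M5 it was 11373 to 20092 (median 16849 over 6 libraries). For every 1000000 gene reads, the 92 genes took 0.490 to 1.18 reads in these GP libraries, against 736 to 1083 in M4 and 962 to 1031 in M5. None of these 4 GP libraries came near the lowest M4 or M5 library, but their low counts were set by the rule. In whole leaves, fewer cells of a type and less RNA per cell cannot be told apart.

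**Figure D1:**
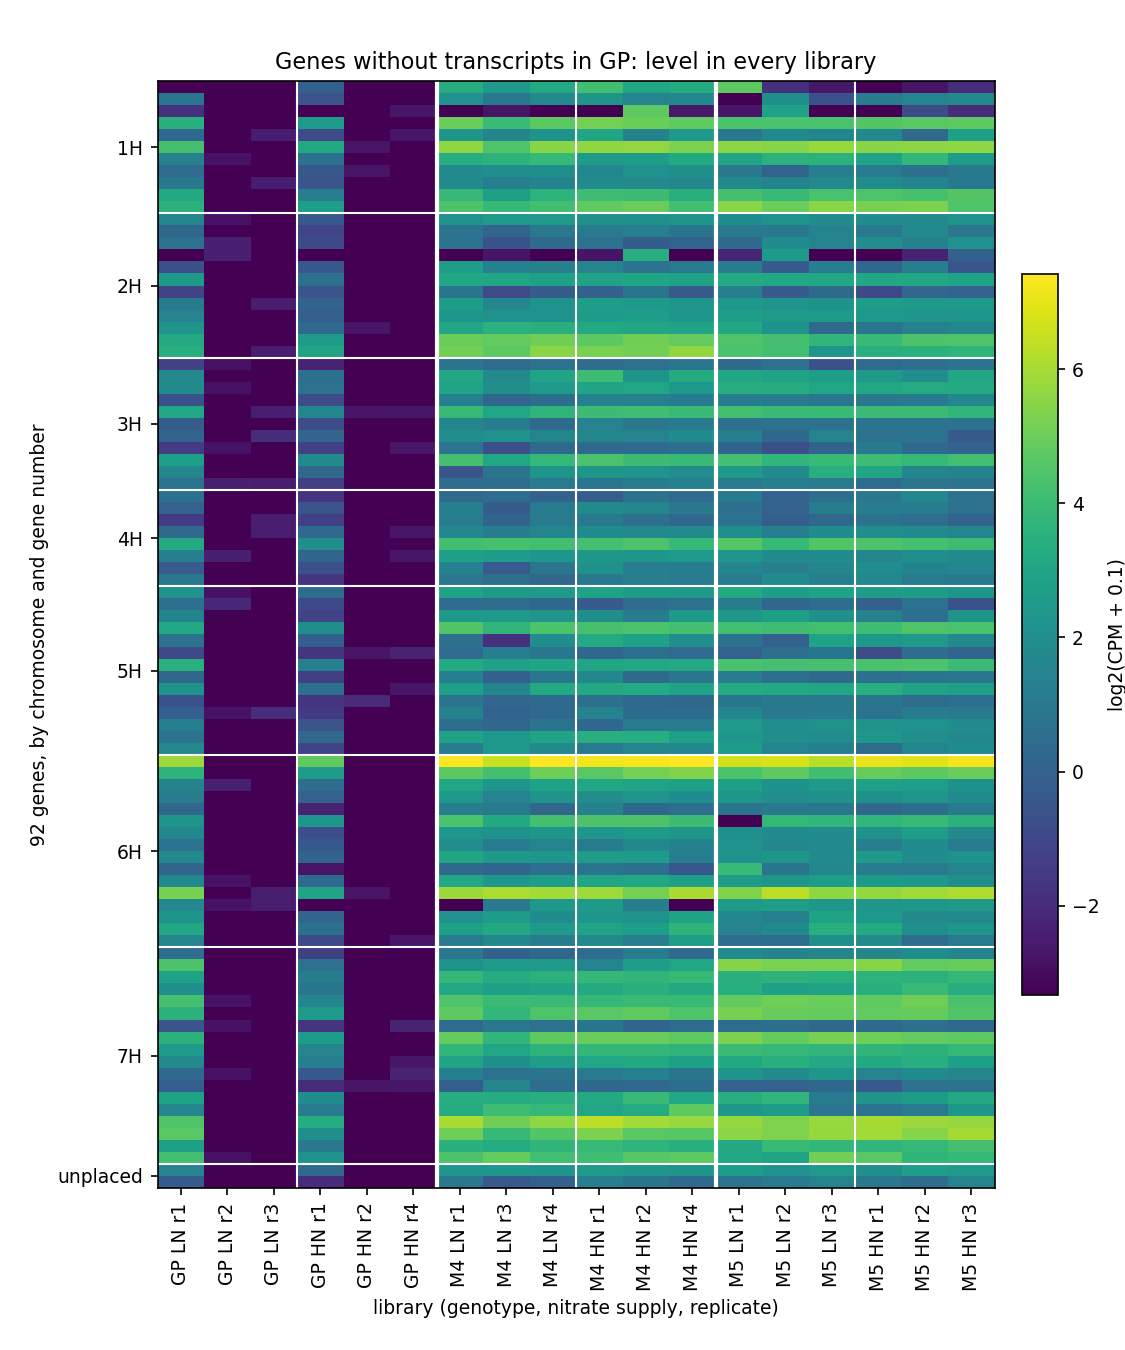
Level of each of the 92 genes (rows, by chromosome and gene number) in each of the 18 libraries (columns, by genotype, nitrate supply and replicate), as log2 of CPM with 0.1 added. The 4 GP libraries other than replicate 1 are dark in nearly every row, with 8 to 19 genes that had a read, while GP LN replicate 1 and GP HN replicate 1 show 90 and 89 genes with reads.

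The rule leaves a narrow margin on the GP side. A further 19 genes at 1 CPM or more in M4 and M5 had 4 to 10 GP reads and 42 had 11 to 30. HORVU3Hr1G064830, HORVU4Hr1G044090 and HORVU7Hr1G081830 were just inside with 3 GP reads each, and HORVU2Hr1G019070, HORVU5Hr1G048150 and HORVU2Hr1G091440 were just outside with 4 each. On the side of the level, HORVU2Hr1G081020 was just inside at 1.05 CPM in M4 and 1.12 CPM in M5, followed by HORVU2Hr1G010660 (1.10 CPM in M4) and HORVU3Hr1G095780 (1.12 CPM in M5). HORVU2Hr1G022400 was just outside at 0.959 CPM in M5, as were HORVU5Hr1G044480 (0.947 CPM in M4) and HORVU3Hr1G114150 (0.937 CPM in M5). No rank between genes is drawn from these levels, as reads were not divided by gene length.

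Most of the 92 genes had low counts in M4 and M5. The median of their mean CPM in M4 and M5 was 4.59, against 17.4 over all 16933 genes, and 25 of them (27.2%) reached 10 CPM, against 64.2% of all. At the other end, 19 (20.7%) were under 2 CPM, against 6.14% of all. These levels were part of the rule and carry no test.

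HORVU6Hr1G008550 on chromosome 6H had the highest CPM of the set. It had 0 reads in each of the 4 GP libraries, 90.2 to 170 CPM in M4 (median 158, n = 6) and 78.7 to 148 CPM in M5 (median 112, n = 6). With a floor of 3 reads over the GP libraries it was at least 3173-fold lower in GP. The lowest M4 value was that of M4 LN replicate 3, and the other 5 M4 libraries lay at 148 CPM or more.

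HORVU6Hr1G088130, also on 6H, had 0 and 1 reads in GP LN replicates 2 and 3, and 1 and 0 in GP HN replicates 2 and 4. It had 36.0 to 68.0 CPM in M4 (median 59.0) and 41.4 to 81.2 CPM in M5 (median 56.6). HORVU1Hr1G018080 had a single GP read, in GP HN replicate 2, against 21.5 to 51.5 CPM in M4 (median 47.3) and 43.4 to 54.0 CPM in M5 (median 46.7). For these genes the M4 and M5 values overlapped. HORVU7Hr1G064420 had no GP read, with 13.2 to 31.3 CPM in M4 (median 28.2) and 26.5 to 38.8 CPM in M5 (median 31.1). HORVU1Hr1G094970 had none either, with 14.3 to 31.1 CPM in M4 (median 19.9) and 22.0 to 44.9 CPM in M5 (median 37.9). Both genes again had overlapping ranges in M4 and M5. Over the 54 genes without any GP read, the level in GP was lower by at least 26.3-fold to at least 3173-fold, with a median bound of 135-fold.

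The 92 genes were spread over all chromosomes. In the order 1H to 7H there were 11, 12, 11, 8, 14, 16 and 18 of them, and 2 more were on sequence not assigned to a chromosome. As a share of the genes at 1 CPM or more in M4 and M5, they made up 0.383% on 4H at the lowest, and 0.827% on 6H and 0.739% on 7H at the highest. By the order of the gene numbers in the IDs, 37 of the 90 placed genes (41.1%) lay in the outer 10% at either end of a chromosome, against 17.9% of the genes at 1 CPM or more. On 2H, for example, HORVU2Hr1G125210 and HORVU2Hr1G125250 lay near the end of the order, and on 4H HORVU4Hr1G000420 near its start. This order is that of the IDs, and no distances in bases were used.

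**Figure D2:**
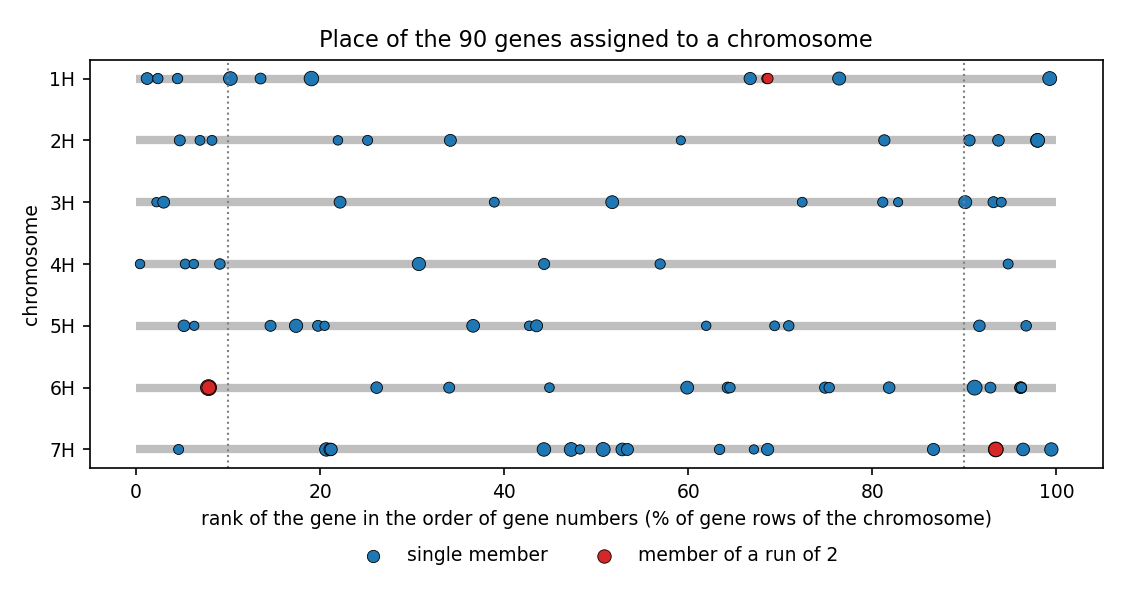
Place of the 90 genes assigned to a chromosome, as the rank of the gene number among all gene rows of that chromosome in percent, with larger points for a higher mean CPM. Dotted lines mark the outer 10% at either end, which hold 37 of the 90 genes, and red points are the 6 genes in runs of 2.

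Few of them were neighbours. A run was taken as a stretch of these genes with no other gene of at least 1 CPM in M4 and M5 between them, and there were 3 runs of 2 genes, while the other 84 placed genes stood alone. On 6H, HORVU6Hr1G008550 and HORVU6Hr1G008580 followed each other with no gene row between them. HORVU6Hr1G008580 had 0 reads in all 4 GP libraries, against 18.7 to 41.1 CPM in M4 (median 29.7) and 17.1 to 30.6 CPM in M5 (median 26.2). The next gene, HORVU6Hr1G008590, had 217 CPM in GP on average, 230.4 CPM in M4 and 258 CPM in M5, so that the stretch without GP reads ended there.

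On 7H, HORVU7Hr1G115990 and HORVU7Hr1G116000 were adjacent rows, both with 0 GP reads. HORVU7Hr1G115990 had 34.1 to 79.9 CPM in M4 (median 56.7) and 39.9 to 62.4 CPM in M5 (median 53.2). HORVU7Hr1G116000 had 14.6 to 39.6 CPM in M4 (median 25) and 39.7 to 62.6 CPM in M5 (median 49.7), without overlap. The flanking genes HORVU7Hr1G115980 and HORVU7Hr1G116040 were read in GP, at 50.3 and 36.4 CPM.

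The run on 1H joined HORVU1Hr1G068570 and HORVU1Hr1G068650 across 4 other rows. HORVU1Hr1G068570 had 1 GP read, with 3.09 to 4.17 CPM in M4 (median 3.85) and 1.01 to 2.29 CPM in M5 (median 1.85). HORVU1Hr1G068650 had 1 GP read as well, with 2.36 to 3.54 CPM in M4 (median 3.11) and 1.90 to 3.52 CPM in M5 (median 3.03). Of the rows between them, HORVU1Hr1G068640 averaged 0.153 CPM in GP, 69.0 CPM in M4 and 0.373 CPM in M5. This stretch therefore differed between M4 and M5 as well. With 1 other gene of at least 1 CPM allowed in between there were 5 runs with 11 genes, which added HORVU2Hr1G125210 with HORVU2Hr1G125250 and a run of 3, HORVU6Hr1G092270, HORVU6Hr1G092310 and HORVU6Hr1G092350.

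For each gene of the set placed on a chromosome, the nearest gene outside the set on either side was tested. Only genes that exceeded 1 CPM in 3 or more of 16 libraries were taken, so that rows with few reads were passed over. HORVU1Hr1G068640, which lies inside the run on 1H, was therefore one of the neighbours. For these 172 neighbours, GP was compared with the mean of M4 and M5 over 16 libraries, without the replicate 1 libraries of GP (edgeR's quasi-likelihood test, Benjamini-Hochberg adjusted p under 0.05). Lower in GP were 19 neighbours (11%), where 6.07% of all 18952 genes tested were called lower. Higher in GP were 17 (9.88%), where 7.30% of all were called higher. Most neighbours were close in level, with 125 of 172 within 0.5 on the log2 scale and a median log2 FC of -0.04, against 0.01 over the tested genes outside the set.

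Larger differences were seen in few neighbours. Of the 172, 14 (8.14%) were more than 4-fold lower in GP, against 1.90% of the tested genes outside the set, and all 14 were called. On the other side, 10 (5.81%) were more than 4-fold higher in GP, against 2.63% of the tested genes outside the set, and all 10 were called. Among the lower ones, HORVU7Hr1G028520, next to HORVU7Hr1G028510, averaged 0.0139 CPM in GP, 0.351 CPM in M4 and 30.7 CPM in M5 (log2 FC -7.67, SE 0.473, adjusted p = 2.38e-06, edgeR). HORVU7Hr1G028970 averaged 0.285 CPM in GP, 12.8 CPM in M4 and 13.2 CPM in M5 (log2 FC -5.46, SE 0.283, adjusted p = 3.40e-07, edgeR), and had 21 GP reads, over the limit of the rule. HORVU2Hr1G010630 had nearly all its reads in M4, at 0.0899 CPM in GP, 156 CPM in M4 and 0.127 CPM in M5. HORVU7Hr1G028520 and HORVU2Hr1G010630 thus had few reads in GP and in one of the other genotypes as well. Among the higher ones, HORVU6Hr1G024120 averaged 1.64 CPM in GP and 0 in M4 and in M5.

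On 7H, HORVU7Hr1G085970, one of the 92 genes, lay between genes that lacked reads in M5 instead. It had 0 reads in GP LN replicates 2 and 3, and 1 read in each of GP HN replicates 2 and 4. In M4 it had 0.844 to 2.87 CPM (median 1.25) and in M5 0.703 to 1.58 CPM (median 1.04). HORVU7Hr1G085930, which the study annotates as a putative aspartate kinase of lysine synthesis, averaged 3.45 CPM in GP, 3.66 CPM in M4 and 0 in M5. HORVU7Hr1G085980 on the other side averaged 30.8 CPM in GP, 29.2 CPM in M4 and 0 in M5. HORVU7Hr1G085970 was thus read in M5 and nearly absent in GP, the reverse of its neighbours.

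The replicate 1 libraries of GP held the 92 genes at levels of their own. In GP LN replicate 1, 90 of the 92 genes had more than 3 reads, with a median of 50.4% of their mean level in M5 LN (quartiles 37.8 and 63.0%) and 54.6% of that in M4 LN. Genes counted in M5 alone (at least 5 CPM in M5 and at most 3 reads summed over the other libraries, GP replicate 1 left out) had a median of 47.6% of M5 LN there (16 genes), and those counted in M4 alone had 0% of M4 LN (12 genes). In GP HN replicate 1, 84 of the 92 genes had more than 3 reads, with a median of 17.7% of M4 HN (quartiles 14.5 and 21.1%) and 20.0% of M5 HN. There, genes counted in M4 alone had a median of 16.3% of M4 HN (12 genes) and those counted in M5 alone had 0% of M5 HN (14 genes). By their medians, the 92 genes stood at nearly the same share as the genes of M5 alone in GP LN replicate 1. In GP HN replicate 1 the same held for the genes of M4 alone. The genes of M5 alone were widely spread (quartiles 27.1 and 59.7% of M5 LN), and those of M4 alone less so (12.4 and 18.3% of M4 HN). By summed CPM, the genes of M5 alone held 40.4% of M5 LN, against 52.0% for the 92 genes. Those of M4 alone held 16.2% of M4 HN, against 17.9%. These are values of 1 library each, with no test.

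**Figure D3:**
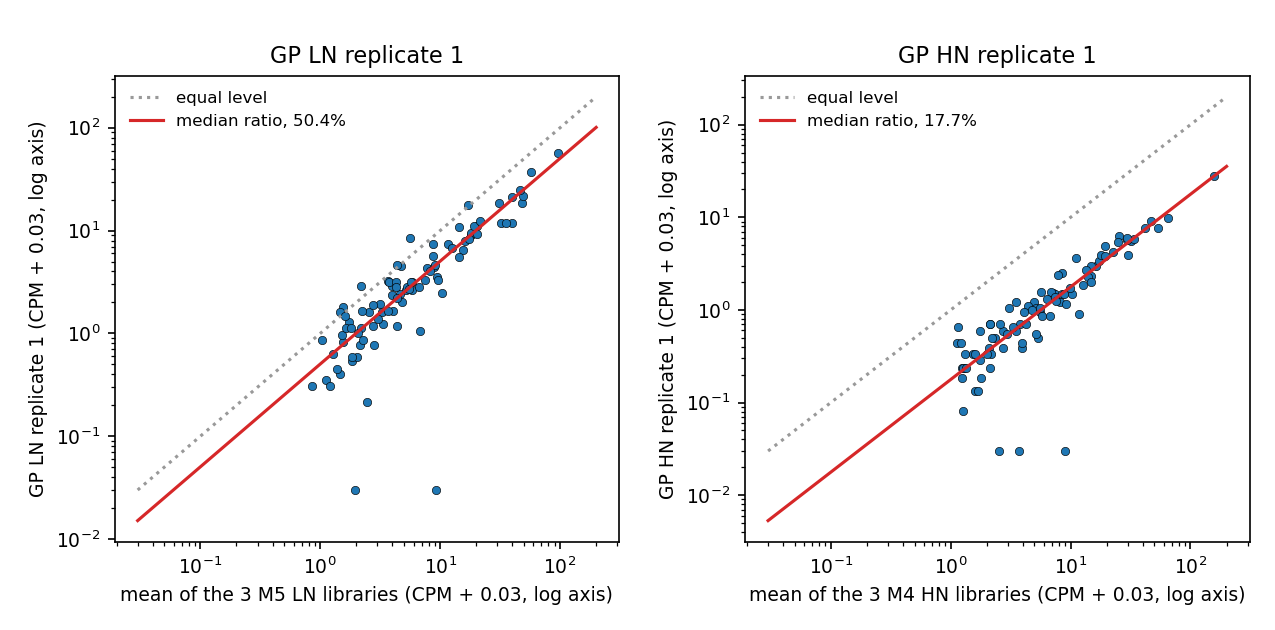
Level of each of the 92 genes in GP LN replicate 1 against its mean over the 3 M5 LN libraries (left) and in GP HN replicate 1 against its mean over the 3 M4 HN libraries (right), in CPM with 0.03 added, on log axes. The points scatter about red lines of the median share, 50.4% on the left (quartiles 37.8 and 63.0%) and 17.7% on the right (quartiles 14.5 and 21.1%). Both red lines lie below the dotted line of equal level.

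The most abundant of the set showed these shares one by one. HORVU6Hr1G008550 had 57.4 CPM in GP LN replicate 1 (59.1% of M5 LN) and 27.6 CPM in GP HN replicate 1 (17.5% of M4 HN). HORVU6Hr1G088130 had 36.9 CPM (64.6% of M5 LN) and 7.61 CPM (14.3% of M4 HN) in the same libraries. HORVU7Hr1G115990 had 21.8 CPM (44.8% of M5 LN) and 9.92 CPM (15.4% of M4 HN). HORVU7Hr1G116000 reached 25 CPM in GP LN replicate 1 (54.0% of M5 LN), and HORVU1Hr1G018080 reached 9.00 CPM in GP HN replicate 1 (19.3% of M4 HN). In each of these genes the share was higher in GP LN replicate 1.

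Genes of the set that differed between M4 and M5 were also looked at in these libraries. Since they were split by the ratio of M4 to M5, the split itself sets the percent of M4 and that of M5 apart, and the values are a description. In 7 genes the M4 mean was at most 0.5 times the M5 mean. GP LN replicate 1 held a median of 53.6% of M5 LN and 135% of M4 LN for them, and GP HN replicate 1 held 27.6% of M4 HN and 10.1% of M5 HN. HORVU7Hr1G028510, the most unequal of them, had 21.1 CPM in GP LN replicate 1 (53.6% of M5 LN and 415% of M4 LN) and 1.54 CPM in GP HN replicate 1 (27.6% of M4 HN and 4.48% of M5 HN). In another 7 genes the M4 mean was at least 2 times the M5 mean. GP LN replicate 1 held a median of 66.5% of M5 LN and 30.2% of M4 LN for these, and GP HN replicate 1 held 14.6% of M4 HN and 64.6% of M5 HN. HORVU2Hr1G125250 had 7.66 CPM there (18.5% of M4 HN and 64.6% of M5 HN). Between these groups of 7 genes, the median in GP LN replicate 1 moved less as a percent of M5 LN than of M4 LN. In GP HN replicate 1 the median moved less as a percent of M4 HN than of M5 HN. Single genes higher in M4 ranged from 0 to 1202% of M4 LN and from 0 to 1268% of M5 HN in these libraries. The highest shares were those of HORVU1Hr1G003370, with a mean of 0.0154 CPM in M4 LN, and HORVU1Hr1G000900, with 0.0689 CPM in M5 HN.

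The run of 3 on 6H departed from this share. HORVU6Hr1G092310 had 8.47 CPM in GP LN replicate 1, which is 153% of M5 LN. HORVU6Hr1G092350 and HORVU6Hr1G092270 stood at 132% and 108% of M5 LN. The M5 LN libraries themselves were uneven for these genes, and HORVU6Hr1G092310 had 2.61, 3.38 and 10.6 CPM in M5 LN replicates 1, 2 and 3.

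M4 and M5 were compared next, which the rule did not fix beyond asking for 1 CPM in each. Of the 92 genes, 90 passed the low-count filter (a CPM above 1 in at least 3 of the 12 M4 and M5 libraries), and HORVU2Hr1G026880 and HORVU1Hr1G003370 did not. By edgeR's quasi-likelihood test with Benjamini-Hochberg adjustment over all 18532 genes tested, 13 of the 90 (14.4%) were called, where 10.8% of all genes were. In M4, 7 were higher and 6 lower, where 6.39% of all genes were called higher and 4.42% lower. The median log2 FC of the 90 genes was -0.01, as it was over all genes tested. A ratio of M4 to M5 of at least 2 was seen in 7.61% of the 92 genes, against 3.17% of the 16933, and a ratio of at most 0.5 in 7.61%, against 1.69%.

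HORVU7Hr1G028510 was the most unequal of the genes lower in M4, with 2.74 to 7.93 CPM in M4 (median 5.38) and 28.7 to 44.5 CPM in M5 (median 37.7). It averaged 5.34 ± 1.72 CPM in M4 and 36.9 ± 6.44 CPM in M5 (SD, n = 6 each), a log2 FC of -2.94 (SE 0.258, adjusted p = 0.000112, edgeR), with every M4 library below every M5 library. HORVU5Hr1G090640 had 1.10 to 2.06 CPM in M4 (median 1.5) and 3.56 to 5.46 CPM in M5 (median 4.31), a log2 FC of -1.61 (SE 0.234, adjusted p = 0.00203, edgeR). HORVU5Hr1G051440 had 6.98 to 9.43 CPM in M4 (median 8.21) and 16.0 to 20.3 CPM in M5 (median 19.6), a log2 FC of -1.20 (SE 0.135, adjusted p = 0.000459, edgeR). The M4 and M5 libraries did not overlap in any of these genes. HORVU7Hr1G006780 followed with 0.878 to 2.15 CPM in M4 (median 1.25) and 2.69 to 3.61 CPM in M5 (median 2.85), a log2 FC of -0.98 (adjusted p = 0.0428, edgeR). HORVU7Hr1G116000 of the run on 7H was also lower in M4 (log2 FC -0.95, adjusted p = 0.0230, edgeR), as was HORVU7Hr1G054890 (log2 FC -0.78, adjusted p = 0.0119, edgeR). HORVU7Hr1G006780 was no longer called in 11 of 21 other settings, 10 of which left out 1 library, with an adjusted p of up to 0.331 (edgeR).

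On the other side, HORVU7Hr1G108460 had 7.92 to 26.5 CPM in M4 (median 11.8) and 1.62 to 6.0 CPM in M5 (median 3.54), a log2 FC of 1.74 (SE 0.410, adjusted p = 0.0261, edgeR). HORVU2Hr1G120660 had 7.59 to 11.6 CPM in M4 (median 8.57) and 1.21 to 8.42 CPM in M5 (median 2.72), a log2 FC of 1.49 (SE 0.409, adjusted p = 0.0496, edgeR). The 2 genes near the end of 2H were higher in M4 together. HORVU2Hr1G125250 had 26.3 to 51.0 CPM in M4 (median 36.6) and 4.65 to 20.5 CPM in M5 (median 12.3), a log2 FC of 1.37 (SE 0.281, adjusted p = 0.0131, edgeR). HORVU2Hr1G125210 had 26.0 to 34.2 CPM in M4 (median 29.6) and 13.3 to 21.7 CPM in M5 (median 20.0), a log2 FC of 0.73 (adjusted p = 0.0190, edgeR). HORVU1Hr1G068570 (log2 FC 1.08, adjusted p = 0.0161, edgeR) and HORVU5Hr1G115980 (log2 FC 0.98, adjusted p = 0.00736, edgeR) were called too. Only HORVU2Hr1G120660 of these 6 genes had overlapping M4 and M5 libraries. Called genes were picked for a difference between M4 and M5, so a lack of overlap adds no support to the calls. The share of all 16933 genes without overlap was not counted.

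HORVU1Hr1G000900 gave the largest log2 FC, 4.41 (SE 1.16, adjusted p = 0.0416, edgeR), and the least regular values. It had 5.50 to 17.8 CPM in M4 (median 9.48), and in M5 it had 27.1 CPM in LN replicate 1 and 0 to 0.169 CPM in the other 5 libraries. Its mean in M5, 4.59 CPM, was 0.0873 CPM without that library. The call was lost in 9 of 21 other settings, all of them with 1 library left out (adjusted p up to 0.153, edgeR).

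**Figure D4:**
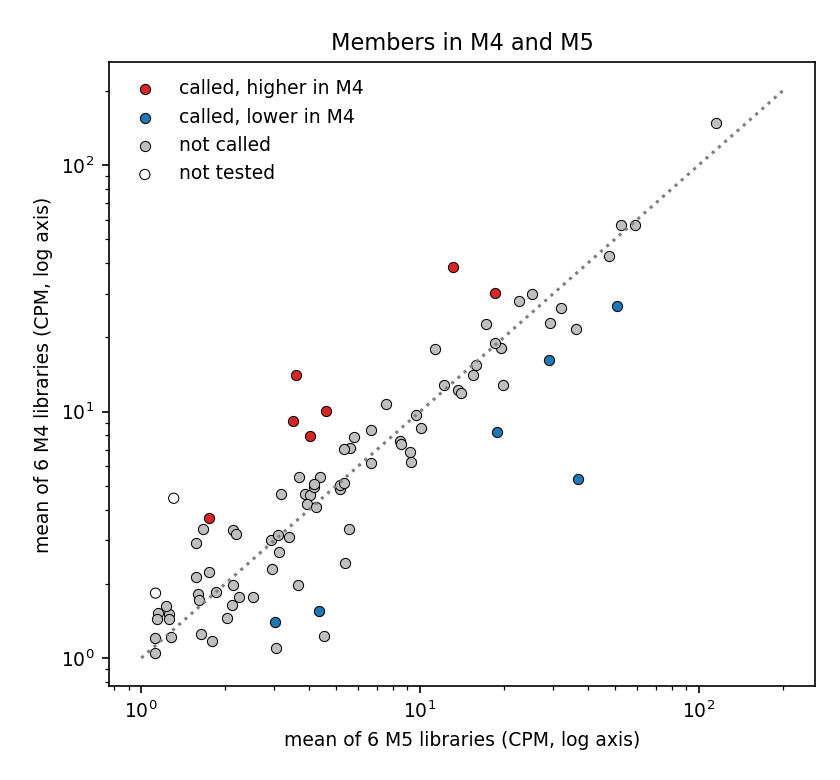
Mean CPM of each of the 92 genes over the 6 M4 libraries against its mean over the 6 M5 libraries, on log axes with a dotted line of equal level. The 7 genes called higher in M4 (red) and 6 called lower (blue) stand off the line on either side, tested genes that were not called are grey, and the 2 genes not tested are white.

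The count of 13 genes depended on the libraries. It was 3 without M4 HN replicate 2, 7 without M4 HN replicate 1, 7 without M4 LN replicate 3, 8 without M5 HN replicate 1 and 8 without M5 HN replicate 2. HORVU7Hr1G028510, HORVU5Hr1G090640 and HORVU5Hr1G051440 stayed called with any 1 library left out, while the other 10 genes lost the call without M4 HN replicate 2 (adjusted p 0.0551 to 0.142, edgeR). The count was 1, with HORVU1Hr1G000900 alone, when the 6 GP libraries were in the fit (adjusted p of HORVU7Hr1G028510 0.0732, edgeR) and 20 without the replicate number as a block. With the 4 GP libraries other than replicate 1 in the fit, a setting added after seeing the data, it was 13.

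Nitrate supply gave no call among these genes. For LN against HN, edgeR's quasi-likelihood test called 0 of the 90 genes in M4 (0% of all 18532 genes), 0 in M5 (0.0216% of all genes), 0 in the average of M4 and M5 (0% of all genes) and 0 in the difference of the response between M4 and M5 (0.00540% of all genes). An unadjusted p under 0.05 was found in 2, 4, 7 and 1 of the 90 genes in these comparisons. DESeq2 and the edgeR likelihood ratio test called 0 of them in each as well. The median log2 FC of LN against HN was -0.13 in M4 and -0.09 in M5, against -0.01 and 0.01 over all genes tested, but these medians depended on single libraries. In M4 it was -0.0037 without M4 LN replicate 3, and in M5 it was 0.0068 without M5 LN replicate 2 and -0.19 without M5 LN replicate 3. Without M4 HN replicate 4, whose treatment label reads 0.5 mM, 0 of the 90 genes were called in M4 either, with an unadjusted p under 0.05 in 6 (edgeR). M4 LN replicate 4 was then the only library of its replicate number in the fit, so the replicate term took it up too. With so few libraries left to compare, and 0 calls also with M4 HN replicate 4, this fit cannot decide whether the label matters. GP was not tested for a response, since the genes were chosen for lacking reads there.

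The genes with the lowest p in each comparison stayed above the threshold. In M4 this was HORVU1Hr1G067070, with 10.3, 12.1 and 14.5 CPM in M4 LN replicates 1, 3 and 4 and 6.08, 6.28 and 8.95 CPM in M4 HN replicates 1, 2 and 4. Its log2 FC was 0.94 (SE 0.287, adjusted p = 0.825, edgeR), and the LN and HN libraries did not overlap. In M5 it was HORVU6Hr1G008550, with 105.2, 107 and 78.7 CPM in M5 LN replicates 1, 2 and 3 and 135, 117 and 148 CPM in M5 HN replicates 1, 2 and 3. Its log2 FC was -0.61 (SE 0.200, adjusted p = 0.623, edgeR), again without overlap. Both genes were picked for the lowest p, so the lack of overlap adds no support for a response. The share of all genes without overlap between LN and HN was not counted. HORVU6Hr1G008580, the neighbour of HORVU6Hr1G008550, had the lowest p in the average of M4 and M5. Its log2 FC was -0.42 (SE 0.139, adjusted p = 0.720, edgeR). The largest difference in response was that of HORVU1Hr1G000900, -6.34 (SE 2.40, adjusted p = 0.95, edgeR), and it was -1.46 without M5 LN replicate 1.

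Within a genotype, most of the 92 genes were read in every library. All 12 M4 and M5 libraries held reads of 86 genes, and 6 genes had 0 reads in at least 1 of them. The coefficient of variation over the 6 libraries had a median of 26.2% in M4 and 22.3% in M5, against 18.4% and 17.5% over the 16933 genes, which have more reads.

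HORVU6Hr1G061580 had 0 reads in M5 LN replicate 1, while the other 5 M5 libraries had 11.9 to 15.3 CPM and the M4 libraries 9.20 to 21.1 CPM. HORVU1Hr1G001810 was at 0 in the same library, with 0.543 to 3.98 CPM in the other M5 libraries. HORVU1Hr1G000900, by contrast, was high in that library alone among the M5 libraries. HORVU6Hr1G074910 was high in M5 LN replicate 1 too, at 15.3 CPM against 1.69 to 3.14 CPM in the other M5 libraries. For HORVU1Hr1G001810, M5 LN replicate 3 was low as well, at 0.543 CPM. The M5 LN replicate 1 library was thus unlike the other M5 libraries for HORVU6Hr1G061580, HORVU1Hr1G000900 and HORVU6Hr1G074910.

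HORVU6Hr1G089620 had 0 reads in M4 LN replicate 1 and in M4 HN replicate 4, with 1.85 to 5.28 CPM in the other M4 libraries and 4.71 to 6.26 CPM in M5. It also had 0 reads in GP HN replicate 1 and 3.15 CPM in GP LN replicate 1.

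HORVU1Hr1G003370 and HORVU2Hr1G026880 were high in the same libraries. HORVU1Hr1G003370 had 26.6 CPM in M4 HN replicate 2 and 7.19 CPM in M5 LN replicate 2, and at most 0.44 CPM in the other 10 libraries. HORVU2Hr1G026880 had 10.9 CPM and 5.67 CPM in these libraries, and at most 0.869 CPM in the others. Their means of at least 1 CPM rested on these libraries, which share the replicate number 2. M5 HN replicate 2, of the same number, had 0.44 CPM and 0.0977 CPM of these genes. In all, 5 of the 92 genes fell under 1 CPM in M4 or in M5 once their highest library was left out, the other 3 being HORVU1Hr1G000900, HORVU2Hr1G081020 and HORVU3Hr1G095780.

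M4 LN replicate 3 stood apart from the other M4 libraries. The 92 genes had a median of 0.691 of their mean level in the other 5 M4 libraries there (quartiles 0.524 and 1.01), against 0.961 over the 16933 genes (quartiles 0.75 and 1.21). Under 0.75 of that level were 52 of the 92 genes (56.5%), against 25% of the 16933, and 51 genes (55.4%) had their lowest M4 value in this library, against 34.0%. HORVU7Hr1G064420, for instance, had 13.2 CPM in it and 26.4 to 31.3 CPM in the other M4 libraries. Genes counted in GP alone (24 genes, chosen without this library) had a median of 0% of their GP level in M4 LN replicate 3, with 30 reads in all. More than 3 reads were found for 1 of them. With lists made likewise, each other M4 or M5 library had at most 6 such reads. Genes counted in M5 alone (19 genes) had 15 reads in M4 LN replicate 3, also the most of any M4 library, with a median of 0%. No other M4 or M5 library had a median outside 0.873 to 1.12 for the 92 genes. By the labels, M4 LN replicate 3 was the only M4 library harvested 147 days after planting. Within M4, the library and its harvest therefore cannot be told apart.

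**Figure D5:**
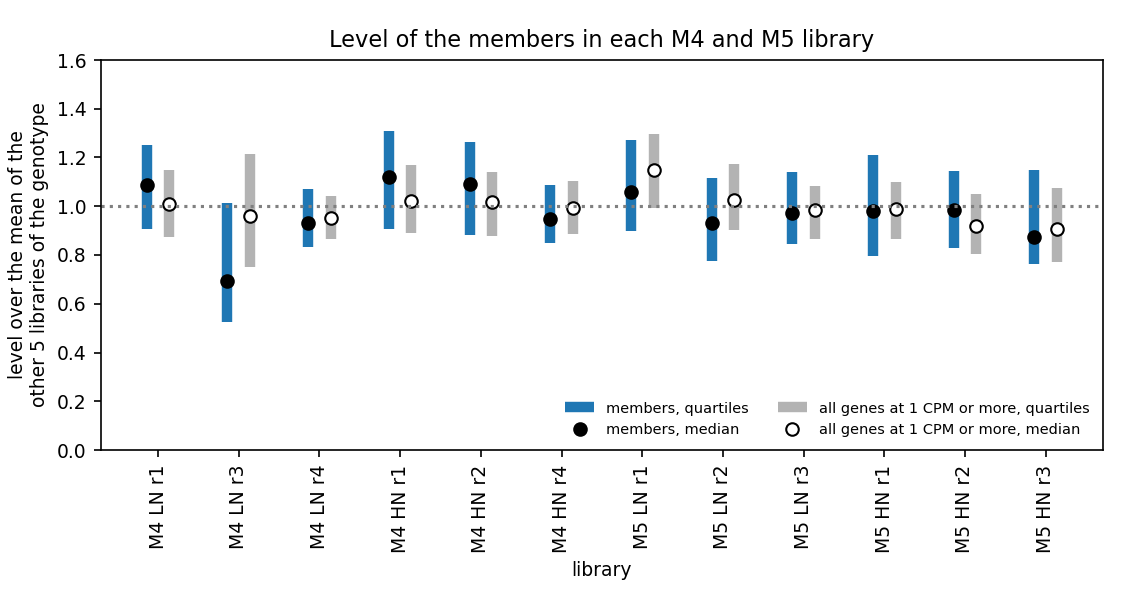
Level in each M4 and M5 library over the mean of the other 5 libraries of the genotype, for the 92 genes (black point for the median, blue bar for the quartiles) and for the 16933 genes at 1 CPM or more in M4 and M5 (open point and grey bar). M4 LN replicate 3 is low for the 92 genes, at a median of 0.691 against 0.961, and the other libraries lie near 1.

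Reads on the opposite strand were not used to choose the genes. In M4 and M5 together, 29 of the 92 genes had more than 3 antisense reads, and 26 of these 29 had 0 in the 4 GP libraries. Antisense reads were only 0.522 to 1.29% of the reads of the 92 genes in M4 libraries and 0.561 to 0.820% in M5 libraries. With so few, the 26 genes at 0 add no support to the lack of sense reads in GP. The share over the 16933 genes was not counted. In GP, 6 genes had any antisense read and 3 had more than 3. HORVU2Hr1G106260 had 94 antisense reads and 1 sense read in GP, against 1 antisense and 598 sense reads in M4 and 2 antisense and 505 sense reads in M5. HORVU4Hr1G000420 had 21 antisense and 0 sense reads in GP, 38 and 141 in M4 and 8 and 185 in M5. Its count on either strand in GP was 1, so most of its antisense reads were not counted for it there. HORVU4Hr1G007150 had 5 antisense and 2 sense reads in GP, 1 and 365 in M4 and 0 and 339 in M5. HORVU2Hr1G106260 was therefore read in GP on the strand opposite to that in M4 and M5.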

How the data were processed

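Polyadenylated leaf RNA of 18 libraries was sequenced by the authors as stranded single reads of 75 bases. According to the methods and the processing notes, Trimmomatic 0.36 trimmed the reads, sortMeRNA 2.1 took out rRNA, and STAR 2.7.3a mapped them to Morex and gave counts. The authors deposited these counts per gene without any scaling, for either strand, the forward strand and the reverse strand. Reverse counts, the sense strand of this kit, were used here. Rows that name no gene stayed out of library sizes: these were multiply mapped (14.9 to 16.7% of a library), outside genes (5.05 to 5.92%), unmapped (1.66 to 2.53%) or ambiguous (0.00472 to 0.0104%). Multiply mapped reads were not counted, which leaves the values of near-identical gene copies uncertain.

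In units of 1000000, libraries held 15.3 to 29.1 reads in all, genes or not. The number of counts limits the precision, and intervals and floors cover counting error only. Folds against 0 reads used a floor of 3 counts over the 4 GP libraries. The main model used edgeR 4.0.16 under R 4.3.3 on the 12 M4 and M5 libraries (CPM above 1 in at least 3 libraries, TMM, group and replicate number as terms, quasi-likelihood test, adjusted p under 0.05), without GP, whose reads chose the genes. SE were taken as the absolute log2 FC divided by the root of F. The neighbours were fitted likewise on 16 libraries. The fits were tested on simulated data.

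The replicate block follows the study's methods and the labels, where a replicate number stands for 1 harvest day. Deviations from group means correlated with a median r of -0.065 over 13 pairs of libraries with the same number, 2 of them above 0.1, and of 0.0355 over 41 pairs with different numbers. The labels' harvest dates lie 14, 21, 147 and 168 days after 1 planting date, while the methods give 14 days, and GP HN replicate 1 has no date. The chi-square between replicates of a group was at least 14.6 times its degrees of freedom, so each library was kept as a sample of its own.

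Alternatives were a fit without the block, all 18 libraries, the likelihood ratio test, DESeq2 1.42.0, RLE size factors, no low-count filter, filterByExpr, counts on either strand, other limits of the rule, other definitions of runs and of the level in the mixed libraries, and each library left out in turn. A fit of 16 libraries and runs with up to 5 other genes between were added after seeing the data. The genes and lists were chosen with earlier results of these data known. Named in the text are the 8 genes with the highest CPM, those in runs, the lowest p for nitrate, the 4 highest and 4 lowest called log2 FC of M4 against M5, the 3 genes nearest each limit, the 3 with most reads in each mixed library, neighbours the study names, up to 5 with a library at 0 and up to 3 with antisense reads in GP. Other genes named were chosen after their values were seen.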

Additional observations from a re-analysis of the deposited data

Results flagged for a closer look

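In groups of 6 libraries, 66 comparisons were made for a library far from the others of its genotype. They covered the genes of the set named by the rule for naming, and the summed reads. Chance gives such a library in about 1 in 20. Some of these genes were named for a library at 0, so this rate does not hold for them. M4 LN replicate 3 lay below the other M4 libraries for the summed reads of the 92 genes (736 for every 1000000 gene reads), for HORVU6Hr1G008550 (90.2 CPM), for HORVU7Hr1G064420 (13.2 CPM) and for HORVU3Hr1G095780 (0.508 CPM). M5 LN replicate 1 lay far from the other M5 libraries for HORVU1Hr1G000900, where it was high (27.1 CPM), and for HORVU6Hr1G061580, where it had 0 CPM. HORVU1Hr1G003370 had 26.6 CPM in M4 HN replicate 2 and 7.19 CPM in M5 LN replicate 2, each far above the other libraries of its genotype.

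Reads on the antisense strand were found in GP for HORVU2Hr1G106260 (94 reads over the 4 GP libraries), HORVU4Hr1G000420 (21 reads) and HORVU4Hr1G007150 (5 reads). These are above the 3 reads that a count of 0 allows. They could enter only the alternative with counts on either strand, where these genes had 95, 1 and 7 GP reads. Most antisense reads of HORVU4Hr1G000420 were thus not counted there.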

How the results depend on the processing

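No named log2 FC turned round under any alternative, but medians near 0 did. With a library left out, the median log2 FC of the set was -0.19 to 0.0068 for LN against HN in M5, -0.24 to 0.12 for the difference in response and -0.096 to 0.17 for M4 against M5, the last without M4 LN replicate 3, and the median over the neighbours reached 0.019 without GP HN replicate 4. Counts on either strand gave a median of 0.0065 for M4 against M5, and the neighbours had 0.00090 with no low-count filter. The number of genes was 54 with 0 GP reads allowed, 39 with a minimum of 5 CPM and 1 with all 6 GP libraries, and 89 to 98 with a library left out. Genes in runs were 10 with up to 10 GP reads allowed, 11 with 1 and 17 with up to 5 other genes in between (the last added after seeing the data), and 6 to 8 with a library left out. Called genes in M4 against M5 were 20 without the replicate block, 1 with all 18 libraries, 13 with 16 libraries (GP without replicate 1) and 3 to 14 with a library left out. The level in GP LN replicate 1 was 47.3% of M5 LN replicate 1 alone, against 50.4% of the 3 M5 LN libraries. Neighbours called lower in GP were 15 to 23 with a library left out. Calls for nitrate stayed at 0 under every alternative, so the block changed no call there. Of the single genes named, 63 combinations of gene and setting lost a call and 294 did not change. The cause of the lower count with all 18 libraries was not tested.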
